A study of Drosophila melanogaster with 20 samples.

Results

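The genes described here encode proteins of the 2 ribosomes of the *Drosophila* cell, the cytoplasmic ribosome and the mitochondrial ribosome. They were chosen by symbol: RpL, RpS and RpLP names for the cytoplasmic ribosome, and mRpL and mRpS names for the mitochondrial ribosome. Each gene was represented by the brightest of the probe sets that name only that gene, as judged by the mean over all arrays. This gave 110 of the 11982 genes with such a probe set, of which 41 are cytoplasmic (25 of the large and 16 of the small subunit) and 69 mitochondrial (44 large and 25 small). The reference annotation lists 92 cytoplasmic and 73 mitochondrial symbols of these forms, so 51 and 4 of them have no value here, *RpS13* among them.

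The cytoplasmic ribosome translates the messenger RNAs of the nucleus, and its proteins are made in near-equal numbers by genes that are highly expressed in growing tissue. In *Drosophila*, loss of a single copy of many of them gives the Minute phenotype of slow growth and thin bristles. Several have a second, paralogous gene, and a number of these paralogs are known for expression in the gonads. The mitochondrial ribosome is built from nuclear-encoded proteins that are imported into the organelle, where it translates the respiratory chain subunits of the mitochondrial genome.

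Expression was measured in eye-antennal imaginal discs, the larval tissue from which the eye and antenna form, with 1 Affymetrix *Drosophila* 2.0 array per RNA sample and 20 arrays in all. Atonal (Ato) is the proneural transcription factor (TF) that starts photoreceptor R8 formation, and Senseless (Sens) is a TF that acts after it. Ato GOF was produced with 2 Gal4 drivers, as Gal4/7 x UASato (3 arrays) and atoGal4 x UASato (3 arrays). Ato LOF discs (ato-/-, 3 arrays) came from an *ato*1/hshid stock that was heat-shocked on consecutive days from the first instar, and Sens GOF discs were atoGal4 x UASsens (3 arrays). The 8 controls were 2 arrays each of the lines Gal4/7, atoGal4, UASato and cantonS, the wild type. The atoGal4 driver is a line of the NP collection of Gal4 enhancer traps, and no control of the UASsens line was among the arrays. Larvae were raised at 18 °C, shifted to 28 °C for 24 h and dissected in the third instar. Heat shock is described for the Ato LOF stock and for no other line, so that effects of genotype, stock and heat shock cannot be told apart in it.

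Values are log2 levels as deposited after RMA, a method that corrects background, brings the arrays to like distributions and combines the probes of each probe set. A difference of 1 on this scale is a change of 2-fold. Each comparison was tested with limma over 18769 probe sets, and a gene is called where its Benjamini-Hochberg adjusted p-value is under 0.05. Because the arrays are scaled to each other, all differences are relative to the other transcripts of the same sample. The deposited arrays do not share exactly 1 distribution: the median over all 18769 probe sets ran from 5.38 to 5.515 between arrays. Over the 11982 genes, 1 chosen probe set each, the median was 7.05 to 7.25 on Ato GOF arrays and 7.19 to 7.27 on Ato LOF arrays. It was 7.19 to 7.33 on Sens GOF arrays and 7.06 to 7.27 on control arrays. In whole discs fewer cells of a type and less RNA per cell cannot be told apart. The 5 comparisons of a perturbation with controls use the same 8 control arrays and are not independent of each other.

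As a check of the labels, *ato* measured 12.22, 12.51 and 12.61 in Gal4/7 x UASato and 11.30, 11.62 and 11.40 in atoGal4 x UASato, and *sens* measured 12.18, 12.15 and 11.68 in Sens GOF, above every control (9.27 to 10.01 for *ato*, 7.98 to 8.70 for *sens*). In ato-/- discs *ato* RNA was at 9.99, 10.35 and 10.19, which checks nothing for a point-mutant allele, and *gl*, a TF of differentiating photoreceptors, was at 8.55, 7.65 and 7.34, below every control (10.97 to 11.42). All 11 eye disc markers of the list had a value, and 5 of them were called lower in Ato LOF. Markers of other larval tissues were uneven between arrays of 1 line. The median level of the 6 salivary gland markers ran from 5.32 to 14.26 on Ato GOF arrays, 10.44 to 13.68 on Ato LOF arrays, 12.64 to 14.31 on Sens GOF arrays and 5.78 to 14.19 on control arrays. The 5 muscle markers ran from 7.98 to 8.77, 8.87 to 9.73, 8.26 to 9.97 and 8.48 to 10.80 on the same sets of arrays, and the 3 fat body markers ran from 8.58 to 14.27, 14.21 to 14.36, 13.50 to 13.91 and 11.79 to 14.34. None of these markers was called against the controls in limma (at an unadjusted p under 0.05, 1 fat body and 1 muscle marker were higher in Ato LOF, and 3 muscle markers were lower with atoGal4, 2 with both drivers and 1 in Sens GOF). The 5 antennal disc markers had medians of 8.94 to 9.08 in Ato LOF and 8.82 to 9.0 in Sens GOF, below the 9.27 to 9.82 of every control, with *dan* and *danr* called lower in Ato LOF (−0.99 both) and *Dll* in Sens GOF (−0.64), and 3 eye disc markers (*elav*, *gl* and *so*) were called lower in Sens GOF. The part of all these tissues in the results below was not tested. Sens GOF arrays 1 and 2 differed by a median of 0.0813 per probe set, where the next closest pair of any 1 line differed by 0.125. Members called in Sens GOF are also given with these 2 arrays averaged.

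Cytoplasmic ribosomal protein genes fell into 3 ranges of signal. In the brightest range, 30 genes had means from 12.50 (*RpL34a*) to 14.45 (*RpL41*), and the highest value of any probe set was 14.72. *RpL24-like*, *RpL7-like* and *RpLP0-like*, homologs of yeast factors that assemble the large subunit, were at 11.48, 11.12 and 9.89. The remaining 8 genes, from *RpS5b* at 7.39 to *RpS28-like* at 3.77, are paralogs. Signals of different probe sets do not measure relative abundance.

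The bright genes varied least, but they lie at the top of the scale, where array signals compress and a change is understated. The median standard deviation (SD) over the 8 controls was 0.0586 for these 30 genes, against 0.172 for all genes, and the range of the 8 line means had a median of 0.139, against 0.438. Only *RpL27* of the 30 had line means more than 0.5 apart. The reference gene *RpL32*, a large subunit protein that the study used to scale quantitative PCR, was at 13.96, 14.06 and 14.13 (lowest, median and highest) on the 6 Ato GOF arrays, at 14.07, 14.16 and 14.16 in ato-/- and at 14.14, 14.13 and 14.13 in Sens GOF, against 13.93, 14.03 and 14.13 on the 8 controls. Its difference from the controls was 0.03 (SE 0.04, limma adjusted p = 0.854) in Ato GOF with both drivers, 0.10 (SE 0.06, adjusted p = 0.283) in Ato LOF and 0.11 (SE 0.05, adjusted p = 0.325) in Sens GOF. The ato-/- and Sens GOF arrays lay in the upper part of the control range or just above it.

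**Figure D1:**
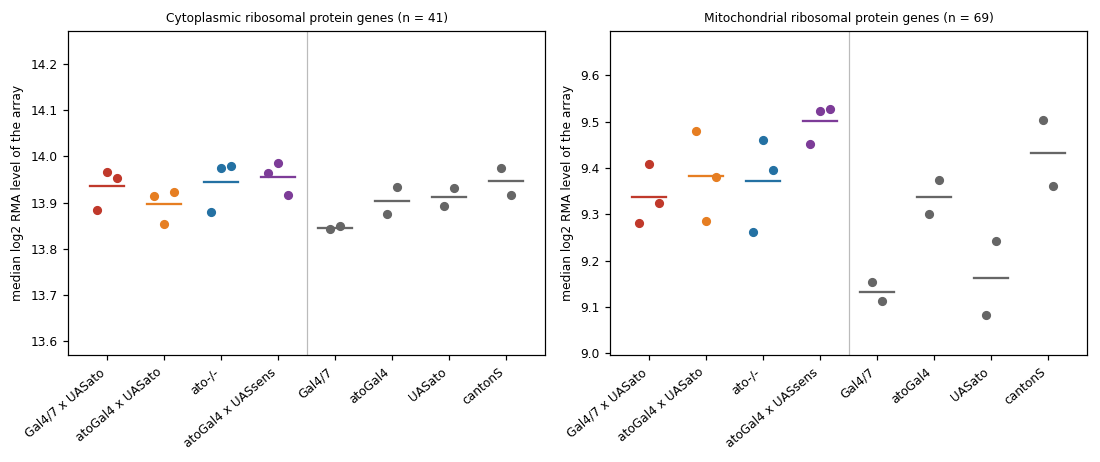
Median log2 RMA level of the cytoplasmic (left, n = 41) and mitochondrial (right, n = 69) ribosomal protein genes on each array (points), with the mean of each line (bars) and perturbed lines left of the grey line. Both panels span 0.7 on the y axis, and the cytoplasmic medians stay between 13.84 and 13.99 while the mitochondrial medians run from 9.08 (UASato) to 9.53 (Sens GOF).

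Over the whole group, the cytoplasmic genes had small median differences in every perturbation, within the same limit. The median level per array ran from 13.85 to 13.97 on Ato GOF arrays, 13.88 to 13.98 on Ato LOF arrays and 13.92 to 13.99 on Sens GOF arrays, against 13.84 to 13.97 on control arrays. The median log2 difference of the 41 genes was 0.03 with Gal4/7, 0.02 with atoGal4, 0.02 in Ato LOF and 0.05 in Sens GOF, beside 0.01, 0.01, −0.02 and −0.01 over all genes. No cytoplasmic gene was called in Ato GOF with either driver or with both. Limma gave 2, 1 and 3 of the 41 at an unadjusted p under 0.05 for Gal4/7, atoGal4 and both drivers, all higher, and the plain t-test gave 2, 1 and 3 and called 0 after adjustment. Over all genes, 1.96%, 0.0835% and 0.943% were called higher and 0.526%, 0.00835% and 0.284% lower, and 8.3%, 5.16% and 8.38% were higher at the unadjusted threshold. The plain t-test gave 1460, 974 and 1540 of all 11982 genes at the unadjusted threshold, in either direction.

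In Ato LOF 1 cytoplasmic gene was called, *RpS19b*, and it was lower, where 10.1% of all genes were called lower and 6.34% higher. *RpS19b* is a paralog of *RpS19a*, a small subunit protein gene that has no value here. It measured 5.42, 5.44 and 5.50 in ato-/- discs, against 5.65, 5.99 and 6.33 (lowest, median and highest) on the 8 controls. All ato-/- arrays were below all controls, and the difference was −0.56 (SE 0.13, limma adjusted p = 0.0175). In Ato GOF the same gene stood at 6.16, 6.38 and 6.46 with Gal4/7 and at 6.78, 6.28 and 6.26 with atoGal4, a difference of 0.37 (SE 0.12) that did not pass (adjusted p = 0.18). The study lists *RpS19b* among its genes upregulated in Ato GOF, a set joined from several filters on RMA, gcRMA and MAS5.0 values. In Sens GOF *RpS19b* was at 5.86, 6.04 and 6.39, overlapping the controls. Against the cantonS arrays alone the Ato LOF difference was −0.73 (limma adjusted p = 0.0502), and without ato-/- array 1 or 2 it missed the threshold as well (adjusted p = 0.0761 and 0.0713). Of the 41 genes, 2 were higher (*RpLP2* and *RpL7-like*) and 2 lower (*RpS19b* and *RpL22-like*) at an unadjusted p under 0.05, beside 13.5% and 18.1% of all genes. The plain t-test called 2 of the 41, beside 1637 of all 11982 genes.

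In Sens GOF no cytoplasmic gene was called in limma or in the plain t-test. Limma gave 1 of the 41 at an unadjusted p under 0.05, the paralog *RpS28-like*, where 9.6% of all genes were higher at this level. Of all genes, limma called 1.7% higher and 2.21% lower. The t-test gave 6 of the 41 at an unadjusted p under 0.05 in either direction, beside 2244 of all 11982 genes. *RpS28-like* was at 4.06, 3.86 and 3.88 in Sens GOF, against 3.58 to 3.76 on the controls, a difference of 0.25 (SE 0.07, limma adjusted p = 0.0709), with every Sens GOF array above every control.

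The widest line-to-line differences of the cytoplasmic group were found in *RpS5b*, *RpS19b*, *RpL27*, *RpL22-like* and *RpL24-like*. *RpS5b*, a paralog of the small subunit gene *RpS5a* known for its role in the ovary, had line means that spanned 1.65. It measured 8.10, 8.34 and 8.50 in Gal4/7 x UASato, 7.08, 7.22 and 7.21 in atoGal4 x UASato, 6.93, 6.88 and 7.75 in ato-/- and 7.15, 7.22 and 7.36 in Sens GOF. Among the controls it was at 7.31 and 7.59 in Gal4/7, 6.96 and 7.17 in atoGal4, 6.59 and 6.74 in UASato and 7.72 and 7.87 in cantonS. The Gal4/7 x UASato arrays were thus above every other array, including both parental lines. The difference from all controls was 1.07 (SE 0.26), or 2.10-fold, with a limma adjusted p of 0.072, and the difference between the drivers, each against its own driver line, was −0.76 (SE 0.20, adjusted p = 0.329). Arrays of ato-/- and Sens GOF overlapped the controls.

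The same Gal4/7 x UASato arrays were high in hemocyte markers, of which 3 of 7 were called higher (*NimC1* by 1.58, *Hml* by 1.57 and *eater* by 1.46 on the log2 scale). The median level of the 7 markers was between 9.60 and 10.53 in Gal4/7 x UASato, against 7.36 to 9.28 in the controls. Of the 11 germline and gonad markers measured, none was called in this comparison, and their median level was between 3.59 and 3.81 in Ato GOF and 3.61 and 3.86 in Ato LOF, against 3.56 to 3.91 in the controls. One of them, *bgcn*, was called higher in Ato LOF (0.41, limma adjusted p = 0.028), where *RpS19b* was called lower. The part of hemocyte RNA in the *RpS5b* signal was not tested. In ato-/- discs, where *RpS19b* was lower, *NimC1* was lower by 2.00 on the log2 scale, and the median of the hemocyte markers was between 7.39 and 9.07, against 7.36 to 9.28 in the controls. The part of these markers in the *RpS19b* result was not tested.

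*RpL27*, a bright large subunit gene, differed between several of the fly lines by more than their arrays did among themselves. It was at 13.52, 13.54 and 13.59 in Gal4/7 x UASato, 13.60, 13.46 and 13.48 in atoGal4 x UASato, 13.09, 13.13 and 13.16 in ato-/- and 13.72, 13.74 and 13.64 in Sens GOF. The controls split into Gal4/7 at 12.95 and 13.01, atoGal4 at 13.29 and 13.24, UASato at 13.66 and 13.70 and cantonS at 13.75 and 13.65. All arrays of both Ato GOF crosses thus lay between their 2 parental lines. None of its comparisons with the controls was called, and the test of any difference among the 4 control lines gave a range of 0.72 with a limma adjusted p of 0.0523. That test called 0.818% of all genes and 0 of the 110 members. With an unadjusted p under 0.05 it gave 2 cytoplasmic and 12 mitochondrial genes, where 11.3% of all genes reached this level. The plain test gave 10 and 12, beside 1310 of all 11982 genes.

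*RpL22-like*, a paralog of *RpL22* known from the male germline, was at 5.76, 5.85 and 5.46 in ato-/-, against 5.76, 6.01 and 6.35 (lowest, median and highest) on the controls, a difference of −0.35 (SE 0.14) that did not pass (limma adjusted p = 0.124). *RpL24-like* was at 11.41, 11.57 and 11.63 in ato-/- and at 11.68, 11.62 and 11.64 in Sens GOF, inside its control range of 10.89 to 11.73. Its low end was set by a single atoGal4 array.

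More than 1 gene was measured in 4 groups of paralogs. The means over all arrays were 5.57 for *RpS28a*, 3.77 for *RpS28-like* and 14.15 for *RpS28b*. They were 4.18 for *RpL10Aa* and 14.01 for *RpL10Ab*, 5.53 for *RpL37-2* and 13.81 for *RpL37-1*, and 9.89 for *RpLP0-like* and 14.11 for *RpLP0*. None of these 9 genes was called in any comparison in limma, with *RpS28-like* in Sens GOF the nearest, and the ranges of their line means ran from 0.112 (*RpLP0*) to 0.347 (*RpLP0-like*).

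**Figure D2:**
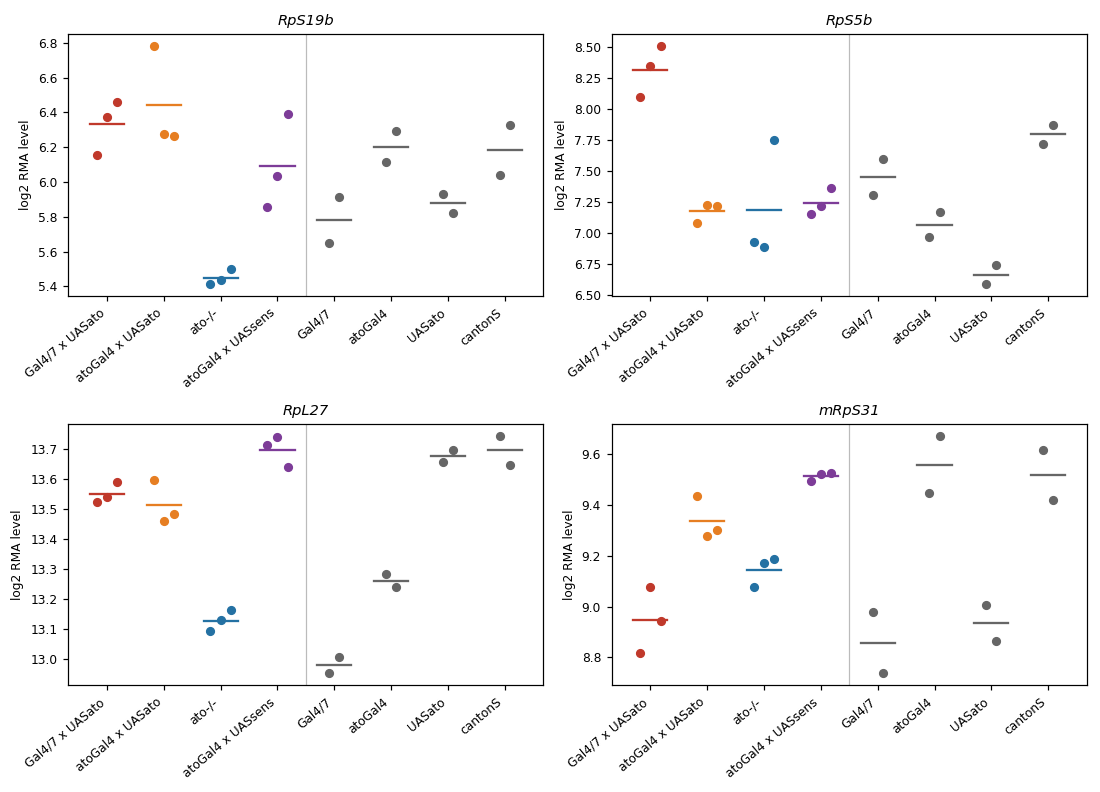
Log2 RMA level of 4 ribosomal protein genes on each array (points) by line, with line means (bars) and perturbed lines left of the grey line. *RpS19b* is lowest in ato-/- (5.42 to 5.50), *RpS5b* highest in Gal4/7 x UASato (8.10 to 8.50), and *RpL27* and *mRpS31* differ among the control lines.

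Mitochondrial ribosomal protein genes had means between 8.48 (*mRpL11*) and 10.70 (*mRpL33*) and a median of 9.33. Their spread was near that of all genes, with a median SD over the controls of 0.161. Line means were more than 0.5 apart for 25 of the 69 (36.2%), 15 of the 25 small subunit and 10 of the 44 large subunit genes, beside 42.1% of all genes. *mRpS5* had the narrowest range (0.115). The median level of the 69 genes was 9.15 and 9.11 in Gal4/7, 9.08 and 9.24 in UASato, 9.30 and 9.37 in atoGal4 and 9.50 and 9.36 in cantonS, so that the control arrays spanned 9.08 to 9.50, where the cytoplasmic medians spanned 13.84 to 13.97. The Gal4/7 line had the lowest mean of the 8 lines for 42 of the 69 genes (60.9%) and for 29 of the 41 cytoplasmic genes (70.7%), and for 2392 of all 11982 genes. The Sens GOF line had the highest mean for 30 of the 69 (43.5%), and for 11.9% of all genes.

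The widest ranges of line means were those of *mRpS31* (0.70), *mRpS24* (0.70), *mRpL18* (0.70), *mRpL48* (0.69) and *mRpL20* (0.66). *mRpS31*, a small subunit gene, was at 8.82, 9.08 and 8.94 in Gal4/7 x UASato, 9.44, 9.28 and 9.30 in atoGal4 x UASato, 9.08, 9.17 and 9.19 in ato-/- and 9.50, 9.52 and 9.53 in Sens GOF. In the controls it was at 8.98 and 8.74 in Gal4/7 and 9.005 and 8.87 in UASato, and at 9.45 and 9.67 in atoGal4 and 9.62 and 9.42 in cantonS. The Gal4/7 and UASato lines and their cross were lowest, with ato-/- next to them, and the test among control lines gave adjusted p = 0.18 in limma. *mRpS24* was lowest in the same control lines, with means of 8.31 in Gal4/7, 8.44 in UASato, 8.80 in atoGal4 and 8.84 in cantonS, and *mRpL20* was highest in cantonS (9.95 and 9.66), against 9.05 to 9.44 in the other control lines. Neither of the 2 was called among the control lines (limma adjusted p = 0.292 and 0.296). *tko*, which encodes another protein of the small mitochondrial subunit and is named outside the rule, was the 1 ribosomal protein gene called among the control lines (range 1.38, limma adjusted p = 0.018). It stood at 9.39, 9.77 and 9.41 in Gal4/7 x UASato, between the parental lines, and at 8.61 and 8.79 in Gal4/7 and 9.88 to 10.17 in the other control lines. This call missed the threshold without either array of atoGal4 or UASato, Gal4/7 array 2 or cantonS array 1, with adjusted p up to 0.0827 (UASato array 1), and in the plain test (0.127).

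In Ato GOF, 63 of the 69 mitochondrial genes had a positive difference with Gal4/7 and 63 with atoGal4, and 67 with both drivers together (97.1%, against 53.8% of all genes). The median difference was 0.09 with Gal4/7, 0.12 with atoGal4 and 0.11 with both, beside 0.01 over all genes in each. These are differences of less than the SD of the control arrays' own medians, 0.146. That SD is a spread of single arrays, with the differences between control lines in it, and not the error of a difference between group means. None of the 69 was called in the 3 comparisons, where 1.96%, 0.0835% and 0.943% of all genes were called higher. Limma gave 4 (5.8%), 6 (8.7%) and 13 (18.8%) of them at an unadjusted p under 0.05, all higher. Of all genes 8.3%, 5.16% and 8.38% were higher at this level. The plain t-test also gave 4, 6 and 13, beside 1460, 974 and 1540 of all 11982 genes in either direction, with 0 of the 69 called after adjustment. *mRpL52* of the large subunit came nearest with both drivers, at 9.45, 9.53 and 9.32 with Gal4/7 and 9.71, 9.46 and 9.42 with atoGal4, against 9.02 to 9.34 in the controls (difference 0.28, SE 0.07, limma adjusted p = 0.0588). *mRpL52* was singled out after its values were seen. The study lists it among its genes upregulated in Ato GOF, a set joined from several filters on RMA, gcRMA and MAS5.0 values. Against only the parental lines of each cross, the median difference was 0.19 with Gal4/7 and 0.13 with atoGal4, beside 0.03 and 0.01 over all genes, and 0 members were called in limma, where 1.37% and 0.0417% of all genes were. Here 24 of the 69 (34.8%) were higher with Gal4/7 and 7 (10.1%) with atoGal4 at an unadjusted p under 0.05, beside 9.48% and 3.89% of all genes. With both drivers against these 3 lines, 69 of the 69 were positive with a median of 0.15 and 28 (40.6%) were higher at this level, beside 8.96% of all genes, and 0 were called, beside 0.542%. Among the control lines, Gal4/7 and UASato had the lowest means of the mitochondrial array medians. These were 9.13 and 9.16, against 9.34 in atoGal4 and 9.43 in cantonS, which is left out here.

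The difference between the drivers was tested on its own, as the change of atoGal4 x UASato from atoGal4 less the change of Gal4/7 x UASato from Gal4/7. No member was called in limma or in the plain t-test, where 0.0835% of all genes were called in either direction. The median was −0.09 for the cytoplasmic and −0.14 for the mitochondrial genes, beside −0.06 over all genes. Limma gave 5 cytoplasmic and 3 mitochondrial genes at an unadjusted p under 0.05, all lower, where 6.46% of all genes were lower. The plain test gave 8 and 3, beside 1029 of all 11982 genes in either direction. The Gal4/7 line, which had the lowest mean for most members, enters this contrast as the control of its cross.

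**Figure D3:**
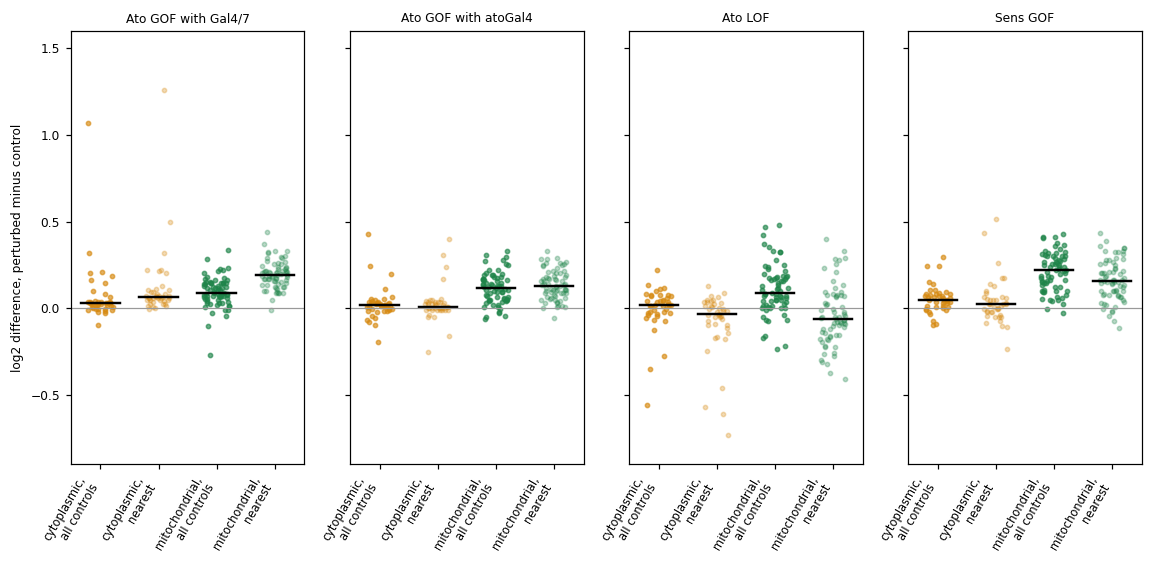
Log2 differences of the 41 cytoplasmic (orange) and 69 mitochondrial (green) genes in 4 comparisons, each against all 8 controls and against the nearest control lines (driver and UASato for Ato GOF, cantonS for Ato LOF, atoGal4 for Sens GOF), with medians as bars. The mitochondrial median is 0.09 in Ato LOF against all controls and −0.06 against cantonS, while in Sens GOF it is 0.22 against all controls and 0.16 against atoGal4.

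In Ato LOF 8 of the 69 mitochondrial genes were called higher and 0 lower, 11.6% of them, where 6.34% of all genes were called higher. *mRpL18*, *mRpL48*, *mRpL28*, *mRpL45*, *mRpL44* and *mRpL22* belong to the large subunit and *mRpS14* and *mRpS30* to the small subunit. *mRpS14* measured 9.06, 9.27 and 8.98 in ato-/- discs, against 8.42, 8.70 and 8.73 (lowest, median and highest) in the controls, a difference of 0.47 (SE 0.09, limma adjusted p = 0.0062). It was the only one of the 8 that was still called when any 1 array was left out. *mRpL18* was at 9.19, 9.26 and 9.25 in ato-/-, against 8.46, 8.75 and 9.002 in the controls, and differed by 0.48 (SE 0.12, adjusted p = 0.0211). *mRpL28* was at 10.23, 10.44 and 10.36, against 9.84, 9.97 and 10.11, and differed by 0.37 (SE 0.08, adjusted p = 0.0118). In these 3 genes all ato-/- arrays were above all controls.

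*mRpL48* was at 9.001, 9.23 and 9.12 in ato-/-, against 8.31, 8.73 and 8.97 in the controls (difference 0.43, SE 0.12, limma adjusted p = 0.0408). *mRpL45* was at 9.46, 9.83 and 9.73, against 9.11, 9.32 and 9.57 (difference 0.36, SE 0.11, adjusted p = 0.0482), and here array 1 of ato-/- overlapped the controls. *mRpS30*, *mRpL44* and *mRpL22* differed by 0.33, 0.33 and 0.24, with adjusted p between 0.0294 and 0.0489. Of the 8 called genes, 6 had every ato-/- array above every control, and of all 69 genes 7 did, beside 6.07% of all genes. The median difference over the 69 was 0.09, beside −0.02 over all genes, and 59 were positive (85.5%, against 46.9% of all genes). The most negative was *mRpS18B* of the small subunit (−0.23, SE 0.14, adjusted p = 0.297).

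The Ato LOF calls were not made against the cantonS arrays alone, a test with 2 control arrays in place of 8, in which 3.4% of all genes were called. Against cantonS alone, the control line with the highest mean of the mitochondrial medians, 0 of the 69 genes were called in limma, the median difference was −0.06, beside −0.05 over all genes, and 24 of the 69 were positive (34.8%, against 43.0% of all genes). The 8 genes kept a positive difference there, of 0.16 to 0.40 with adjusted p between 0.173 and 0.516. Of the 69, 5 were higher and 3 lower against cantonS at an unadjusted p under 0.05, beside 9.51% and 12.5% of all genes. The number and the line of the control arrays cannot be told apart in this comparison.

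**Figure D4:**
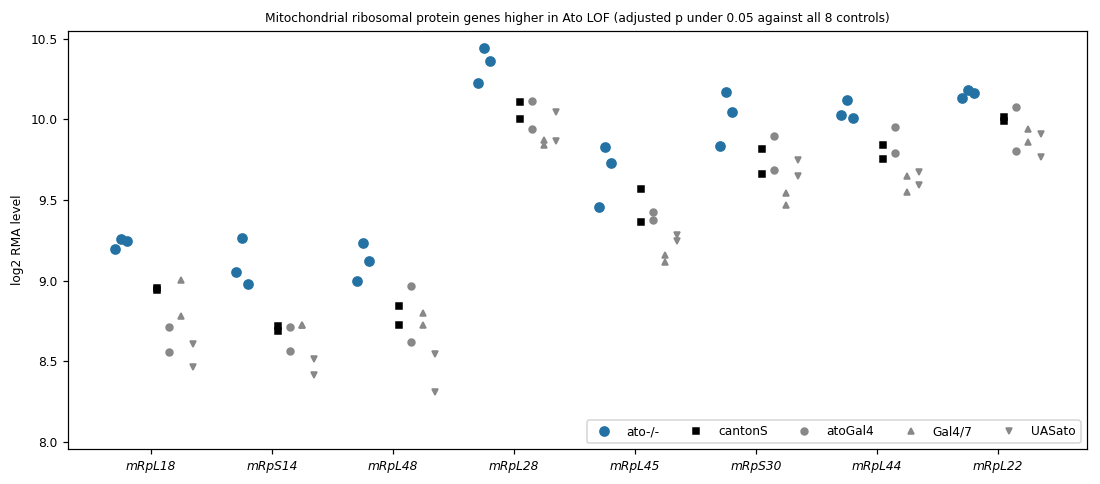
Log2 RMA level of the 8 mitochondrial ribosomal protein genes called higher in Ato LOF, in ato-/- (blue, 3 arrays) and in the 4 control lines (2 arrays each). All ato-/- points lie above all control points except for *mRpL45* and *mRpS30*, and UASato is the lowest or next to lowest control line for each gene.

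In Sens GOF most mitochondrial genes had a small positive difference. Of the 69, 67 had a positive difference (97.1%, against 49.0% of all genes), among them all 25 of the small subunit. The median was 0.22, a 0.26 median in the small and 0.20 in the large subunit, beside −0.01 over all genes. The median level of the 69 genes was 9.45, 9.52 and 9.53 in Sens GOF, against 9.08 to 9.50 in the controls, of which only cantonS array 1 reached into the Sens GOF range. In 13 of the 69 genes every Sens GOF array was above every control, beside 4.2% of all genes.

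One of the 69 genes was called, *mRpL28* of the large subunit, where 1.7% of all genes were called higher and 2.21% lower. It was at 10.46, 10.41 and 10.26 in Sens GOF, against 9.84, 9.97 and 10.11 (lowest, median and highest) in the controls, and differed by 0.40 (SE 0.08), or 1.32-fold (limma adjusted p = 0.0212). At an unadjusted p under 0.05, 29 of the 69 were higher (42.0%) and 0 lower, beside 9.6% of all genes higher. The next in order was *mRpS9*, at 10.35, 10.37 and 10.30 in Sens GOF, against 9.59 to 10.15 in the controls (difference 0.41, SE 0.10, adjusted p = 0.051), and it was singled out after its values were seen. *mRpL20* had the largest difference, 0.43 (SE 0.17, adjusted p = 0.197), at 9.76, 9.75 and 9.89 in Sens GOF, within the range that cantonS widened. *mRpS24* was at 8.94, 8.95 and 9.14, above all controls, and differed by 0.41 (SE 0.15, adjusted p = 0.163).

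With Sens GOF arrays 1 and 2 averaged, 0 of the 69 were called and *mRpL28* had adjusted p = 0.122. Against the 2 atoGal4 arrays, the line that carries the same driver, 63 of the 69 were positive with a median of 0.16, beside −0.01 over all genes, and 0 were called, beside 0.559% of all genes (8 higher and 0 lower at an unadjusted p under 0.05, beside 6.94% of all genes higher, *mRpL28* with a difference of 0.35 and adjusted p = 0.257).

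**Figure D5:**
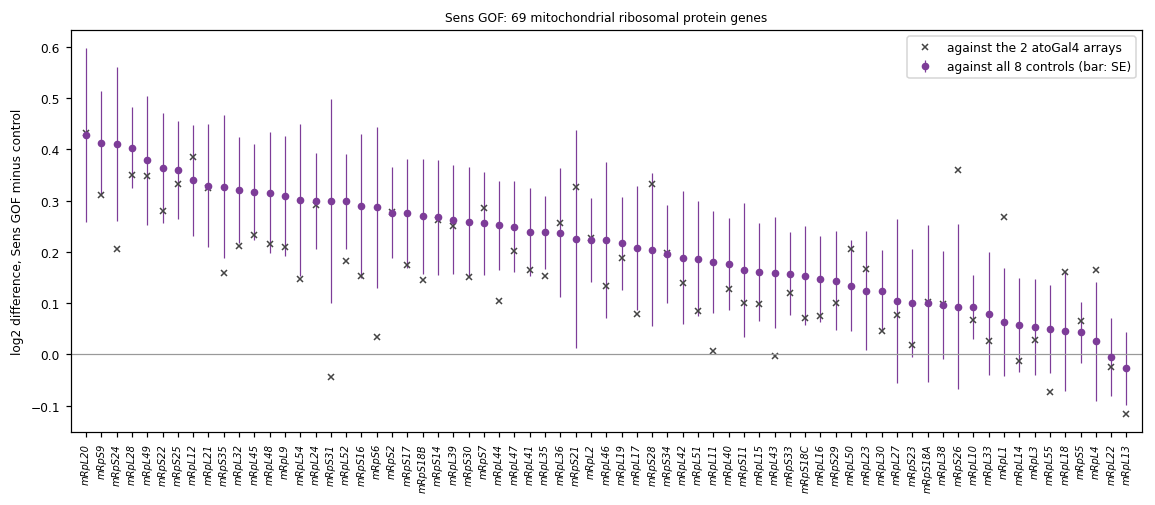
Log2 difference of each of the 69 mitochondrial ribosomal protein genes in Sens GOF against all 8 controls (purple, bars give the SE of the limma fit) and against the 2 atoGal4 arrays (crosses), in order of the first. Of the 69 differences 67 are above 0 against all controls and 63 against atoGal4.

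Other genes of protein synthesis were set beside the members from lists. Their counts stand beside the shares of all genes given above (in Ato LOF 6.34% higher and 10.1% lower, in Sens GOF 1.7% higher and 2.21% lower). At an unadjusted p under 0.05 in limma, 9.6% of all genes were higher in Sens GOF, 8.3% with Gal4/7 and 5.16% with atoGal4. Of 30 measured genes of ribosome biogenesis, 3 were called higher in Ato LOF (*Ns2*, a nucleolar GTPase, by 0.66, *Dis3* of the RNA exosome by 0.54 and *Nle*, a large subunit assembly factor, by 0.40) and 1 lower (*Rrp6*, also of the exosome, −0.43), and 0 in Sens GOF (3 at an unadjusted p under 0.05) or in Ato GOF with either driver (0 and 0). Of 26 cytoplasmic translation factors, 2 were called lower in Ato LOF, *eIF3k* (−0.33) and *eRF3* (−0.25), and 0 in Sens GOF (1 at an unadjusted p under 0.05). Against cantonS alone *Ns2* (adjusted p = 0.309), *Dis3* (0.0719), *Rrp6* (0.119), *eIF3k* (0.215) and *eRF3* (0.519) were not called, and *Ns2* was lost in 8 of 11 fits without 1 array, *Rrp6* in 6 and *eRF3* in 9.

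Of 23 genes of mitochondrial translation, 2 aminoacyl-tRNA synthetases were called higher in Ato LOF (*TyrRS-m* by 0.42 and *SerRS-m* by 0.35) and the elongation factor *mEFTs* lower (−0.30). In Sens GOF the release factor *mRF1* was called higher by 0.56, at 7.32, 7.52 and 7.37, against 6.43 to 7.16 in the controls. Of the 23 genes, 9 were higher in Sens GOF at an unadjusted p under 0.05, beside 9.6% of all genes. The *mRF1* call was lost with Sens GOF arrays 1 and 2 averaged (adjusted p = 0.184), against atoGal4 (0.27) and in 8 of 11 fits without 1 array. The median difference of the list in Sens GOF was 0.15. Against cantonS, *TyrRS-m* had adjusted p = 0.355 and *SerRS-m* 0.274.

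Oxidative phosphorylation includes the proteins that the mitochondrial ribosome makes, but the 46 genes measured here are nuclear. Of these, 7 were called higher in Ato LOF and 6 in Sens GOF, with 0 lower in both, and the median differences were 0.16 and 0.21. *ND-20*, a subunit of complex I, was at 11.23, 11.17 and 11.22 in ato-/- and 11.12, 11.13 and 11.18 in Sens GOF, against 10.68 to 10.96 in the controls (differences 0.39 and 0.33). *ox* of complex III and *ND-19* of complex I were higher in Sens GOF by 0.43 and 0.42. Both calls were lost with Sens GOF arrays 1 and 2 averaged (adjusted p = 0.109 and 0.124), against atoGal4 (0.467 and 0.237) and in 8 of 11 fits without 1 array each, and the *ND-20* call in Ato LOF against cantonS (0.188). In Ato GOF none of the 46 was called with either driver, with median differences of 0.10 and 0.10. At an unadjusted p under 0.05, 6 were higher with Gal4/7 and 7 with atoGal4, beside 8.3% and 5.16% of all genes. The array medians of the 46 were 11.06 to 11.27 in ato-/- and 11.15 to 11.23 in Sens GOF, against 10.79 to 11.08 in the controls, with cantonS again the highest control line.

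Of 23 regulators of growth and of the response to ribosomal stress, 7 were called lower in Ato LOF and 0 higher. They were *InR*, the insulin receptor (−0.86), *Mnt*, a repressor of the Myc network (−0.79), *crp* (−0.46), *foxo* (−0.41), *Akt* (−0.35), *PEK*, a kinase of eIF2alpha (−0.34), and *crc*, the fly ATF4 (−0.31). *InR* was at 8.34, 8.53 and 8.92 in ato-/-, against 8.96 to 9.67 in the controls. Against cantonS alone *InR* had adjusted p = 0.249 and *Mnt* 0.183, and values of the other called regulators against cantonS are not given. In Sens GOF *crp* was called lower (−0.57). This call was lost with arrays 1 and 2 averaged (limma adjusted p = 0.0685) and against atoGal4 (0.0926). It was also lost without Sens GOF array 1 (0.0826), 2 (0.0555) or 3 (0.0641). In Ato GOF no regulator was called. At an unadjusted p under 0.05, 3 were higher with Gal4/7, beside 8.3% of all genes. With atoGal4 1 was higher and 1 lower, where 5.16% of all genes were higher.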

How the data were processed

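Biological repeats of each line were arrayed by the authors, who deposited log2 values made with RMA (version not stated). Their gcRMA and MAS5.0 values were not used here. Of 18952 probe sets, 183 Affymetrix controls were left out. Of the 18769 tested, 13647 name 1 gene in the array's annotation, 402 several and 4720 are unnamed here. All 110 members matched RefSeq by gene ID, and 6 have several probe sets. For each comparison limma (version 3.58.1, R 4.3.3; lmFit, then eBayes) took the compared arrays alone, had no covariate, and p-values were adjusted over all probe sets. The study's text does not name the controls of Ato LOF and Sens GOF, and all 8 were used. The methods' t-test (equal variances) is the plain test. Members named are *RpL32*, up to 5 called per direction, group and comparison, the 5 of each group with the widest range of line means, the measured paralog pairs and up to 3 called genes per list; others were chosen after their values were seen. Members, lists and this rule were chosen with earlier results of these data known. The fit was tested on simulated data. The number of arrays limits precision. Alternatives were a filter at the median level, the mean of probe sets, repeated quantile normalization, trend and robust variances, 1 fit of all 20 arrays, the nearest controls, the replicate number or line as block, array weights, other thresholds, averaging of Sens GOF arrays 1 and 2, and leaving out each array. Plots used Python 3.11.15 and matplotlib 3.10.9. A planned search of promoter motifs was not run, because no promoter sequences were used here.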

Additional observations from a re-analysis of the deposited data

Results flagged for a closer look

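In 26 named members and both group medians, 56 sets of Ato GOF or control arrays were tested for a single array apart from the rest, where chance sets about 1 in 20 apart. This was so in 2 of them. *mRpS14* was at 9.07 on Gal4/7 x UASato array 2, against 8.79 to 8.88 on the other Ato GOF arrays. *RpL22-like* was at 6.42 on atoGal4 x UASato array 2, against 6.17 to 6.25 on the other Ato GOF arrays.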

How the results depend on the processing

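The number of arrays and the choice of control lines set the limits. Log2 differences of 0.1 to 0.5 lie close to the spread of the controls, and causes of changes below were not tested. Counts below, except by t-test and nearest controls, have no count of all genes to compare them with. In Ato LOF the count of 8 mitochondrial genes became 2 with the replicate number of the sample titles as a block (a second label gives number 1 to both arrays of a control line), 5 in the plain t-test, 4 with the line as a random block, 1 where adjusted p had to be under 0.01, 0 where genes also had to change over 1.5-fold, and 0 against cantonS. The cytoplasmic count of 1 became 2 with trend and robust variances, in the fit of all 20 arrays and in the t-test, and 0 against cantonS and under both stricter thresholds. Against cantonS the median difference moved to −0.0608 for mitochondrial and −0.0335 for cytoplasmic genes. In Sens GOF the mitochondrial count of 1 became 3 with the filter on low values, 2 with repeated quantile normalization, 2 with trend and robust variances, 6 in the fit of all 20 arrays, 29 with array weights, and 0 against atoGal4, with arrays 1 and 2 averaged and under both stricter thresholds. The cytoplasmic count of 0 became 3 with array weights. In Ato GOF 1 cytoplasmic gene, *RpS5b*, was called with Gal4/7 in the fit of all 20 arrays (adjusted p = 0.0183) and with array weights (0.0242), and 1 mitochondrial gene with both drivers under the filter on low values, repeated quantile normalization and array weights. Among the control lines the cytoplasmic count of 0 became 1 with the filter, trend and robust variances, the replicate block and array weights, and 2 in the fit of all 20 arrays, where 3 mitochondrial genes were called.

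Leaving out 1 array gave 1 to 9 mitochondrial and 0 to 1 cytoplasmic genes in Ato LOF: 9 mitochondrial without cantonS array 1, 5 without array 1 of UASato or array 2 of Gal4/7, 4 without array 1 of Gal4/7, of atoGal4 or of ato-/- or array 2 of cantonS, 3 without UASato array 2, 2 without ato-/- array 3 and 1 without ato-/- array 2. The 1 cytoplasmic gene, *RpS19b*, was lost without ato-/- array 1 or 2. The same gave 0 to 6 mitochondrial genes in Sens GOF, with 6 without cantonS array 1, 2 without UASato array 1 or atoGal4 array 2 and 0 without Sens GOF array 1 or 2. It gave 0 to 1 cytoplasmic genes with Gal4/7, with 1 called without Gal4/7 x UASato array 1 or cantonS array 2, and 0 to 1 among the control lines, with 1 called without Gal4/7 array 1. Between the 4 lines with 3 arrays, deviations of same-numbered arrays had correlations from −0.32 to 0.27, against −0.39 to 0.49 for different numbers. The control lines, with 2 arrays each, were not part of this check. Their mitochondrial medians rose from array 1 to array 2 in atoGal4 and UASato and fell in Gal4/7 and cantonS. Their ribosome biogenesis medians rose in each line. They went from 9.20 to 9.44 in Gal4/7, 9.39 to 9.80 in atoGal4, 9.40 to 9.74 in UASato and 9.54 to 9.74 in cantonS. They also rose from array 1 to 2 in lines with 3 arrays. Arrays 1, 2 and 3 were at 9.38, 9.67 and 9.49 in Gal4/7 x UASato and 9.39, 9.42 and 9.55 in atoGal4 x UASato. They were at 9.47, 9.56 and 9.62 in ato-/- and 9.58, 9.62 and 9.42 in Sens GOF. Whether arrays of 1 number share a cause was not tested. Without 1 array the mitochondrial median ran from 0.0408 (ato-/- array 2) to 0.167 (ato-/- array 1) in Ato LOF, fell to 0.049 with Gal4/7 (without Gal4/7 x UASato array 2) and 0.0711 with atoGal4 (without atoGal4 x UASato array 1), and ran from −0.236 (atoGal4 array 1) to −0.0691 (atoGal4 array 2) in the driver difference, where it was −0.0946 without Gal4/7 x UASato array 2. The cytoplasmic medians against the controls ran from −0.0001 (Ato LOF without ato-/- array 3) to 0.0635. Repeated quantile normalization gave a mitochondrial median of 0.154 in Ato LOF and a cytoplasmic one of −0.0067. Of 41 results, each for 1 gene in 1 comparison, none reversed under any alternative. Other members did change sign: 59 of the 69 mitochondrial genes were positive in Ato LOF against all controls, and 24 against cantonS.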
